A study of Mus musculus with 9 samples.

Results

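Tandem acceptors 3 nt apart are pairs of 3′ splice sites in which the spliceosome can cut at either of 2 places separated by a single triplet of bases, so that the downstream exon begins with or without those 3 bases. The 969 described here, in 876 genes, were selected on their measured values: alternative acceptor events with a listed length of 3 nt, a deposited percent spliced in (PSI) for each of the 3 conditions of an experiment, with 1 condition or more between 5 and 95. Of 2417 such 3 nt rows among 39661 alternative acceptor rows, 855 met the rule in the first experiment, 875 in the second and 761 in both, with 94 and 114 meeting it in the first or the second only. PSI here is the share of an event's reads, in percent, that use the upstream acceptor, which leaves the extra triplet in the mRNA. The event lists 2 acceptors for 844 members and 3 or more for 125. In those 125 the remaining reads can include acceptors other than the 3 nt partner, so PSI is not the choice within the pair alone. Among the members named below they include Gnb1, Nrf1, Ipo7, Cyth2, Acsl4, Ywhaz, Bahcc1, Ccnj and Rad51ap1.

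Introns end in AG, and the upstream or the downstream AG of such a pair is taken in the second step of splicing, after the branch point has been chosen. The base before each AG is known to matter, with C and T accepted more readily than A, and G least. U2AF1 and U2AF2 bind the AG and the pyrimidine tract before it, while the second-step factors Slu7, Prpf18, Cdc40 and Dhx38 act when the acceptor is cut. In a coding region the choice adds or removes 3 bases without shifting the reading frame, and such pairs are common in mammalian genes.

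PolyA RNA came from N2A cells, an established mouse neuroblastoma line, harvested 48 hours after pooled small interfering RNAs were transfected with a lipid reagent. The first experiment had 1 library for the joint knockdown of Mbnl1 and Mbnl2, 1 for that of Nacc1 and 1 for a non-targeting pool, the control. The second had 2 libraries each, with the letters a and b, for knockdown of Srrm4, knockdown of Zfp871, and a non-targeting control. RNA was extracted with TriZol or a column kit, without a statement of which library had which. All groups are 1 cell line, and nothing says that the libraries of a group were separate cultures, so p-values measure only how these libraries vary, which may be technical variation.

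Total gene counts were 50086176 to 63715449 per library in the first experiment and 44186088 to 61159670 in the second. The members drew 174161 to 215817 and 205316 to 277349 reads per library, with a median per member of 120 to 152 and 105 to 146. Intervals given below hold for counting error alone: without molecular identifiers, reads cannot be taken as independent molecules. The targeted genes were lower where they were targeted. In counts scaled to library size (CPM), Mbnl1 went from 124 in control to 45.2 and Mbnl2 from 65.7 to 18.2, and Nacc1 from 208.5 to 52.0. Mbnl1 was also lower in the Nacc1 knockdown library than in that control, at 82.7, while Mbnl2 stood at 65.6 there. Srrm4 stood at 66.9 and 96.1 in the control libraries, against 28.3 and 26.0 where it was knocked down (a log2 fold change of -1.59 with SE 0.19, 2 libraries a group, edgeR adjusted p = 0.0222). Its values under Zfp871 knockdown were 45.3 and 53.9 (-0.73, edgeR adjusted p = 0.099, and 6.29e-05 with the column letter as a block). Zfp871 stood at 17.6 and 26.1 in control, against 7.24 and 5.10 where it was knocked down (-1.84 with SE 0.25, edgeR adjusted p = 0.0271). The sympathetic neuroblastoma markers Phox2a, Hand2, Dbh and Stmn2 were expressed in every library, whereas Ptprc, Cd3e, Col1a2, Lum and Sox10 of other cell types were at or near 0. Nefl and Nefm, also on the neuroblastoma list, were near 0 as well. Under Zfp871 knockdown Phox2a, Dbh and Stmn2 were called lower (edgeR adjusted p = 0.0298, 0.0232 and 0.0481). Their part in the splicing values was not tested.

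The sequences that show what a pair looks like are those of 6 coding members for which a GENCODE vM21 transcript (GRCm38) runs across the intron end. They are printed 5′ to 3′ with capitals on the triplet that ends at the upstream acceptor and on the extra triplet that follows it, and they were chosen to cover different pairs of triplets and a wide range of PSI.
Pcbp2: tgctcttttctgtctttTAGCAGgtttgga
Rad51ap1: agtggtgttcgtgtctcCAGAAGatttgga
Rg9mtd3: taagaaaatttgatttaCAGAAGgtgacat
Tatdn3: ttctctctcttttctctAAGAAGcagaagc
Cnbp: gcttcttttccttattgTTGAAGcctgcta
Cyth2: ccctcccaccccttcccTTGCAGggggccg
The intron ends are rich in c and t except in Rg9mtd3, where a is the commonest base, and in the first 4 both triplets end in AG. In Cnbp and Cyth2 the matched transcript places a triplet that does not end in AG before the upstream acceptor. PSI over the 9 libraries was 28.9% to 33.0% in Cnbp and 76.9% to 92.7% in Cyth2. The match rests on gene symbol and intron length in another build, and whether this triplet precedes the acceptor in use was not tested.

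A second set shows the same place in the spliced mRNA of 7 coding members on which the comparisons below turn, or which drew the most reads. The 12 bases before the capitals belong to the upstream exon, the capitals mark the extra triplet, and the remaining bases follow the downstream acceptor.
Naa50: gaagatgaaaggTAGccggatcgagctggg
Elavl3: agaatggtcactCAGatactgggggccatg
Map4k4: aaattccaccagCAGtattgagccccggct
Slc38a10: agcctaagcctgCAGacgtgcagccagagc
Neurl4: tgttgcttcctgAAGattatttcatgcctc
Ptms: gaagtagtggagGAGgaggagaatggagct
Psmb7: ccagatatggagGAGgaagaagccaagaag
The extra triplet ends in AG in all 7, as it must where the downstream acceptor is a standard one, and its first base is the only base that varies. Tbc1d4 and Ap2a2, described below, have no sequence here, since no matched transcript begins the exon at the upstream acceptor.

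In control cells the upstream acceptor took most of the event's reads in most members. Mean control PSI over the 875 of the second experiment had a median of 74.8 and quartiles of 33.6 and 91.1, and 580 (66.3%) were above 50. It was at least 90 in 245 (28.0%), at most 10 in 79 (9.03%) and between 25 and 75 in 268 (30.6%). The first experiment's control gave a median of 74.7 over 855 members, with 561 (65.6%) above 50. By the same rule 2312 acceptors more than 3 nt from their partner had a median of 50.3, quartiles of 6.92 and 92.6, and 31.9% at 10 or below. The 3 nt pairs thus held fewer sites at the low end than the wider pairs, as a description, since both sets were selected on PSI. Of the 3 nt rows with a PSI in all conditions that missed the rule, 528 in the first and 510 in the second experiment were above 95 in every condition, and 178 and 173 were below 5.

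**Figure D1:**
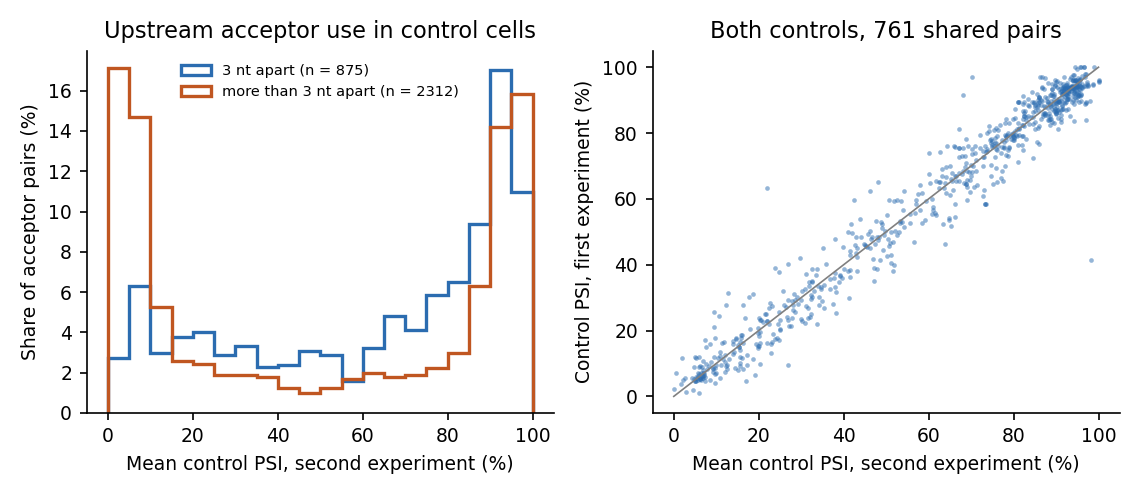
Left, the share of acceptor pairs (vertical axis, percent) in each 5-point bin of mean control PSI in the second experiment, for 875 pairs 3 nt apart and 2312 pairs more than 3 nt apart. Right, control PSI in the first experiment against the second, 1 point per shared pair (761), with the line of equality; most points lie along the line, and a few pairs stand far from it.

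Values close to the limits of the rule show how fine the selection is. Near 95 in the second experiment, the pairs in Usp40, Fam65a and 1200016B10Rik were inside with a lowest condition of 94.97, 94.96 and 94.92, and those in Ptprf, Xrcc1 and Zmynd11 were outside with 95.004, 95.011 and 95.053. Near 5, Ttc8, Tanc2 and Sepn1 were inside with a highest condition of 5.04, 5.10 and 5.12, and Pcsk7, Dtl and Fam133b were outside with 4.87, 4.86 and 4.73. In the first experiment Casp6, Golga3 and Fbxo38 were inside the upper limit (95, 94.96 and 94.94) and Zcchc11, Herc3 and Hemk1 outside it (95.08, 95.09 and 95.13). Trp53bp1, Tbp and Cdr2l were inside the lower limit (5.04, 5.07 and 5.18) and Plekhg2, Nthl1 and 6430598A04Rik outside it (4.92, 4.88 and 4.88).

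The extra triplet could be read for 779 members, whose upstream acceptor starts an exon in a matched transcript. It was CAG in 472 (60.6%), AAG in 193 (24.8%), TAG in 65 (8.34%), GAG in 47 (6.03%), and another triplet in 2. Among 470 rows of 3 nt that missed the rule it was CAG in 59 (12.6%), AAG in 209 (44.5%), TAG in 16 (3.40%) and GAG in 184 (39.1%). Read the other way, 88.9% of the 531 rows with CAG were members, against 80.2% of 81 with TAG, 48.0% of 402 with AAG and 20.3% of 231 with GAG. Rows that missed the rule were almost all on the upstream side where the triplet was AAG (206 of 209 above 50) or GAG (183 of 184), and less uniformly so for CAG (44 of 59) and TAG (12 of 16).

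Within the members the level followed the same triplets. Median control PSI in the second experiment was 73.2 for CAG (n = 442), 77.7 for TAG (n = 59), 92.5 for AAG (n = 166) and 92.7 for GAG (n = 39), and in the first 72.7, 77.0, 91.4 and 93.5. The quartiles of the members with CAG were 45.6 and 88.2 in the second experiment, and those of the members with GAG 88.8 and 95.3. Members whose triplet could not be read had a median of 17.1 (n = 168) in the second experiment, against 81.1 (n = 707) for those read. Only pairs annotated at the upstream acceptor give a triplet this way. The shares and medians above therefore describe pairs whose upstream acceptor is annotated, and low-PSI pairs are few among them.

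The triplet before the upstream acceptor was known for 129 members, those with a transcript that runs across the intron end. It was CAG in 91, TAG in 29, AAG in 7, GAG in 0 and another triplet in 2. The commonest combination was CAG followed by CAG, in 64 members, with a median control PSI of 67.4 (n = 56) in the second experiment. CAG followed by AAG (19 members) had a median of 82.9 (n = 18), TAG followed by CAG (17 members) 68.6 (n = 16) and TAG followed by AAG (8 members) 78.0 (n = 7). These medians are descriptions of few pairs each.

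Of the 779 members with a read triplet, 699 were coding, 49 in a 5′ UTR, 6 in a 3′ UTR and 25 in transcripts with no coding region. Median control PSI was 82.5 (n = 639) for coding pairs and 57.1 (n = 43) in the 5′ UTR. The reading frame was known for 672 coding members. The triplet formed a whole codon in 256 (38.1%), began after the first base of a codon in 298 (44.3%) and after the second in 118 (17.6%). TAG, which is a stop codon when in frame, never formed a whole codon among its 52 coding members, whereas CAG did in 156 of 397, AAG in 69 of 176 and GAG in 30 of 46. Part of this follows from the annotation, since a coding region would have ended at such a codon.

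PSI was similar between the controls of the 2 experiments. Over the 761 shared members the controls correlated with Pearson's r of 0.982 and Spearman's rho of 0.965 across pairs, which share cell line and method and are not replicates. The median absolute difference was 2.88 points, with 57 (7.49%) at 10 points or more. It sets 1 library of the first experiment against the mean of 2 of the second. Between single control libraries a and b of the second experiment the median gap was 2.38 points, with 9.46% at 10 or more. The lowest and highest of all 9 libraries lay under 10 points apart in 340 of 761 members (44.7%), and in 135 of the 172 (78.5%) with at least 200 reads in every library.

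The most-read members show how narrow the spread can be. Gnb1, a G protein beta subunit, had a PSI of 22.56, 24.31 and 22.96 in the Mbnl1/2, Nacc1 and control libraries of the first experiment. In the second it was 20.8 and 22.9 in control, 20.8 and 22.4 in the Srrm4 and 19.9 and 20.6 in the Zfp871 knockdown, from 6290 to 10102 reads. The Srrm4 libraries overlapped with control, and the Zfp871 libraries lay just below the control libraries. Over the 9 libraries the range was 4.16 points in Psap (prosaposin), 6.42 in Pcbp2 and 6.66 in Pcbp3 (poly(rC)-binding proteins), 4.10 in Psmb7 (a proteasome subunit) and 4.10 in Cnbp. Ptms (parathymosin) and Ssrp1 (a subunit of the FACT histone chaperone) ranged over 5.79 and 7.01 points, and in both the 3 libraries of the first experiment were higher than the 6 of the second.

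For the second experiment, the question was whether loss of Srrm4, a regulator of neuronal microexons, or of Zfp871, a zinc finger protein, shifts the use of the upstream acceptor. Of the 875 members 870 passed the limits on reads and PSI and were tested among 6812 acceptors. The limma test on the logit of PSI, with an adjusted p under 0.05 and a difference of at least 10 points as a call, called 0 members in each of the 3 contrasts, with a background of 0% in each. Its smallest adjusted p among members was 0.352 for Srrm4 knockdown against control, 0.253 for Zfp871 knockdown against control and 0.296 for Zfp871 against Srrm4 knockdown. At an unadjusted p under 0.05 it found 43 (4.94%), 105 (12.1%) and 100 (11.5%) members, where all acceptors gave 5.83%, 8.60% and 8.65%. The edgeR read test, on inclusion and exclusion reads and with the same call, called 3 members (2 higher, 1 lower; background 0.191%), 10 (3 higher, 7 lower; background 0.47%) and 14 (8 higher, 6 lower; background 0.661%). The 3 contrasts share libraries, and since the members were selected on PSI in these conditions, the counts are set beside the background without a test.

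Most differences were small. The median absolute difference in mean PSI was 2.04 points for Srrm4 knockdown, 2.95 for Zfp871 knockdown and 2.76 between the knockdowns. The 2 libraries of a group differed by a median of 2.42 (control), 2.82 (Srrm4) and 2.79 (Zfp871). Those gaps are between single libraries, which vary more than means of 2, so they are not on the same scale as the differences. The median signed difference was -0.12, -0.09 and 0.10, close to 0 in each contrast. A difference of at least 10 points was seen in 37 members for Srrm4 (15 higher, 22 lower; background 3.05%), in 81 for Zfp871 (44 and 37; background 4.61%) and in 73 between the knockdowns (38 and 35; background 4.59%). These are 4.25%, 9.31% and 8.39% of the members, and acceptors over 3 nt apart chosen by the same rule gave 4%, 6.44% and 6.53%.

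The libraries of the 2 groups did not overlap in 302 members (34.7%, with 136 higher and 166 lower) for Srrm4 knockdown, against a background of 30.3%. They did not overlap in 425 (48.9%, with 206 higher and 219 lower) for Zfp871 knockdown, against 34%, and in 401 (46.1%, 203 and 198) between the knockdowns, against 36%. Wider pairs by the same rule gave 36.0%, 41.7% and 42.6% at a lower depth (a median of 77 reads per library against 121), and the order of the 2 sets depended on depth, as given below. Selected instead on the first experiment's PSI, which played no part in these contrasts, 839 members gave 34.6%, 48.7% and 45.4% and read-test calls in 3, 9 and 12.

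The share without overlap grew with depth for Zfp871. It was 34.7% in 190 members with a mean of 10 to 50 reads per library, 49.2% in 382 with 50 to 200, and 57.4% in 298 with 200 or more. For Srrm4 it was 32.6%, 34.8% and 35.9% in the same classes, and between the knockdowns 35.8%, 43.5% and 56.0%. Wider pairs gave 35.5%, 42.4% and 50% for Zfp871, 27.7%, 39.7% and 40.8% for Srrm4, and 37.2%, 41.8% and 52.5% between the knockdowns. In both contrasts with Zfp871 the members' share was thus below that of the wider pairs in the class with fewest reads and above it in the others, and for Srrm4 it was the reverse. At 200 reads or more the median absolute difference in mean PSI was 1.36 points for Srrm4 and 2.11 for Zfp871 knockdown. The control libraries differed by a median of 1.52, again a gap between single libraries and not between means. Among well-read members the Zfp871 libraries thus stood apart from control more often than the Srrm4 libraries did, by small differences; the contrasts share the control libraries, and the gap between their shares was not tested.

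**Figure D2:**
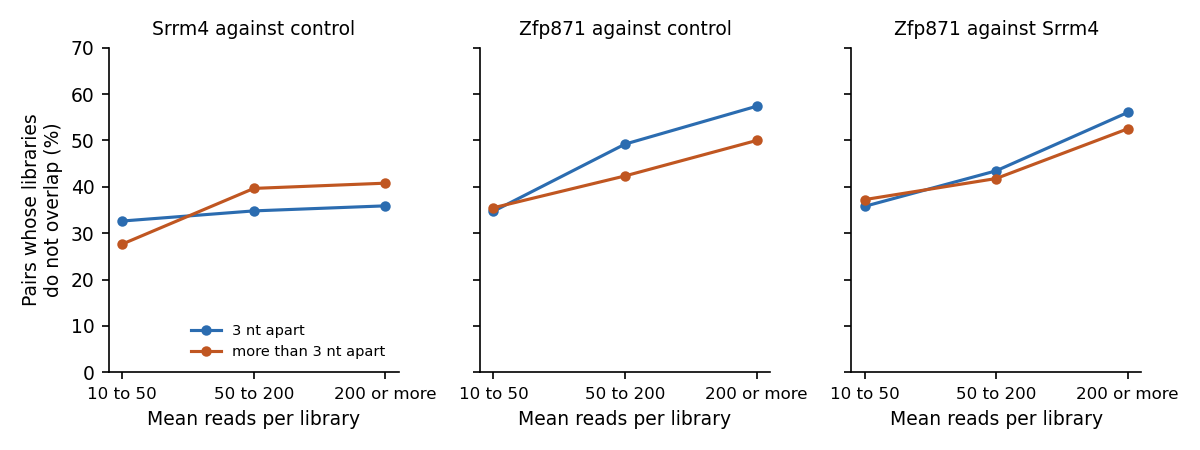
Percent of acceptor pairs whose libraries of the 2 groups do not overlap in PSI (vertical axis), by mean reads per library (horizontal axis), for pairs 3 nt apart and pairs more than 3 nt apart, 1 panel per contrast. The share among 3 nt pairs goes from 34.7% to 57.4% for Zfp871 against control and from 32.6% to 35.9% for Srrm4 against control.

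**Figure D3:**
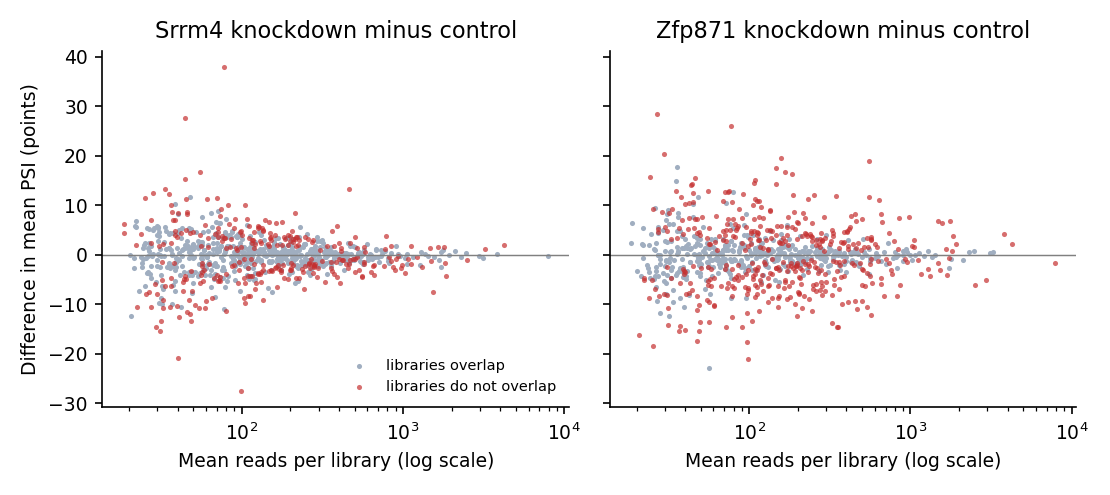
Difference in mean PSI (points) of Srrm4 (left) and Zfp871 (right) knockdown from control against mean reads per library on a log scale, 1 point per tested member (870). Red points are members whose libraries do not overlap, grey points those that do; the spread narrows with reads in both panels, and red points lie above and below 0.

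The largest difference under Srrm4 knockdown was in Fsd1l, which encodes a protein with fibronectin type III and SPRY domains (chr4:53706856-53706859, plus strand, mm9, coding, the span between the first exon bases at both acceptors). Its PSI was 9.69 and 9.55 in control libraries a and b, 49.1 and 46.0 in the Srrm4 knockdown and 29.5 and 41.6 in the Zfp871 knockdown, from 48 to 111 reads. No group overlapped another, and control was lowest. The difference was 37.9 points for Srrm4 (read test adjusted p = 2.71e-07) and 25.9 for Zfp871 (adjusted p = 0.00496), and -12.0 between the knockdowns (adjusted p = 0.703). In the first experiment Fsd1l stood at 17.9, 18.9 and 17.8 in the Mbnl1/2, Nacc1 and control libraries.

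Tbc1d4, a GTPase-activating protein for Rab proteins in glucose transporter traffic (chr14:101858110-101858113, minus strand), differed in the other direction. Its PSI was 34.9 and 28.5 in control, 7.10 and 1.11 in the Srrm4 knockdown and 12.8 and 8.54 in the Zfp871 knockdown, from 82 to 134 reads. Control was above both knockdowns with no overlap. The difference was -27.6 points for Srrm4 (read test adjusted p = 3.68e-06) and -21.1 for Zfp871 (adjusted p = 0.00744). Srrm4 itself had lower CPM in the Zfp871 knockdown libraries, as given above, and its part in the Zfp871 values of Fsd1l and Tbc1d4 was not tested.

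The third call for Srrm4 was in Ppp4c, the catalytic subunit of protein phosphatase 4 (chr7:133935734-133935737, minus strand). Its PSI was 65.6 and 66.7 in control and 83.8 and 74.9 in the Srrm4 knockdown, with 74.6 and 71.2 in the Zfp871 knockdown, from 388 to 608 reads. The difference of 13.2 points (read test adjusted p = 0.0128) rested largely on Srrm4 library a, without which it was 8.74 (adjusted p = 0.989). Without Srrm4 library b the Tbc1d4 difference was -24.6 (adjusted p = 0.0562), while Fsd1l was called with each library left out in turn.

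Ap2a2, an alpha subunit of the clathrin adaptor AP-2 (chr7:148797232-148797235, plus strand), was among the 10 called for Zfp871 knockdown. Its PSI was 33.1 and 31.8 in control, 34.3 and 30.9 in the Srrm4 knockdown and 53.3 and 49.4 in the Zfp871 knockdown, from 417 to 697 reads, and 32.2, 35.1 and 34.6 in the first experiment. Only the Zfp871 libraries stood apart, above the other 7. The difference was 18.9 points from control (read test adjusted p = 5.08e-05) and 18.7 from the Srrm4 knockdown (adjusted p = 2.69e-05), and both were called with each library left out.

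Nrf1, nuclear respiratory factor, a transcription factor for mitochondrial genes (chr6:30039915-30039918, plus strand), had the same direction. Its PSI was 39.9 and 36.2 in control, 40.9 and 35.5 in the Srrm4 knockdown and 56.3 and 58.8 in the Zfp871 knockdown, from 138 to 186 reads. Control and Srrm4 libraries overlapped and Zfp871 libraries were higher. The difference of 19.5 points (read test adjusted p = 0.0297) was not called when any 1 of the control or Zfp871 libraries was left out (adjusted p of 0.115 to 0.394).

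The other called members had a lower PSI under Zfp871 knockdown. Neurl4, a neuralized-family protein of centrioles (chr11:69724946-69724949, plus strand), stood at 99.0 and 97.4 in control, 95.9 and 98.1 in the Srrm4 and 84.8 and 89.0 in the Zfp871 knockdown, from 206 to 322 reads (difference -11.3, read test adjusted p = 2.04e-05). Elavl3, the neuronal RNA-binding protein HuC (chr9:21841301-21841304, minus strand), stood at 88.2 and 86.3, 85.9 and 83.4, and 76.3 and 69.1 in the same order, from 270 to 442 reads (-14.6, adjusted p = 0.000141). In both the Zfp871 libraries were lowest with no overlap. The Neurl4 call held with each library left out, and that of Elavl3 was lost without Zfp871 library b (-11.0, adjusted p = 0.22).

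Map4k4, a kinase of the Ste20 family (chr1:40063516-40063519, plus strand), stood at 91.9 and 87.9 in control, 90.6 and 92.7 in the Srrm4 and 78.8 and 78.9 in the Zfp871 knockdown, from 350 to 630 reads (difference -11.1, read test adjusted p = 0.00216). Naa50, an N-terminal acetyltransferase (chr16:44156523-44156526, plus strand), stood at 70.6 and 70.1, 71.9 and 70.5, and 58.6 and 57.6, from 419 to 733 reads (-12.2, adjusted p = 0.0297). Slc38a10, of the amino acid transporter family (chr11:119967347-119967350, minus strand), stood at 71.9 and 66.0, 66.8 and 68.1, and 54.6 and 54.3, from 306 to 458 reads (-14.5, adjusted p = 0.0272). In all 3 the Zfp871 libraries were lowest, with no overlap with the control or Srrm4 libraries. Each of these calls was lost without at least 1 library: Map4k4 without control a (adjusted p = 0.169) or Zfp871 b (0.0687), Slc38a10 without control a, Zfp871 a or Zfp871 b (0.17 to 0.604), and Naa50 without any control or Zfp871 library (0.127 to 0.384).

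Rg9mtd3, an RNA methyltransferase-domain protein (chr4:45327155-45327158, plus strand), was called with a difference of -22.9 (read test adjusted p = 0.0102), but its Zfp871 libraries stood at 100 and 50.6. Control was 98.5 and 97.9 and the Srrm4 knockdown 100 in both, from 41 to 69 reads. Without Zfp871 library b the difference was 1.83 (adjusted p = 0.942), in the opposite direction. Calls in Fsd1l and Tbc1d4 for Zfp871 were also lost without Zfp871 library b (adjusted p = 0.306 and 0.396), that of Fsd1l also without control b (0.116) and that of Tbc1d4 without control a (0.154).

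**Figure D4:**
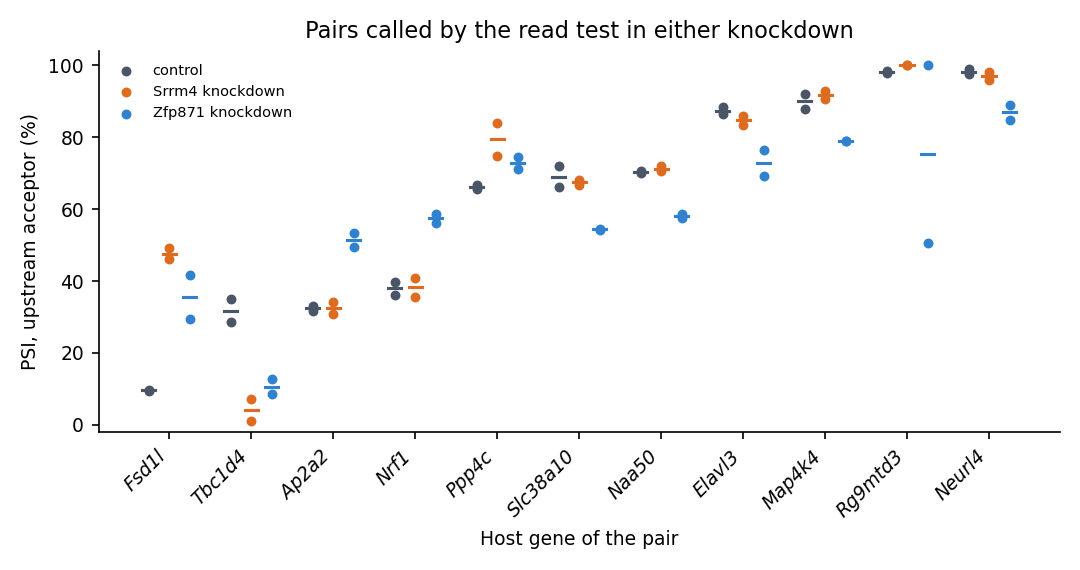
PSI (percent, vertical axis) of the 11 members called by the read test in Srrm4 or Zfp871 knockdown against control, ordered by control PSI. Points are single libraries of the second experiment and short lines the mean of the 2; in Ap2a2, Nrf1, Slc38a10, Naa50, Elavl3, Map4k4 and Neurl4 the Zfp871 libraries stand apart from the other 4.

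Zfp871 and Srrm4 knockdown were also compared directly. The 14 read-test calls included Ap2a2, Nrf1, Elavl3, Naa50, Map4k4, Neurl4 and Rg9mtd3 with values above. Pds5a, a cohesin regulator (chr5:66010291-66010294, minus strand), stood at 26.9 and 26.7 in control, 21.9 and 22.7 in the Srrm4 and 38.7 and 38 in the Zfp871 knockdown, from 366 to 784 reads. Its difference between the knockdowns was 16.0 points (read test adjusted p = 8.83e-05), and that from control 11.6 (adjusted p = 0.0502). The control libraries of Pds5a lay between the knockdowns, with no overlap. Pds5a, Ap2a2 and Map4k4 were called between the knockdowns with each library left out.

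Other calls between the knockdowns had smaller differences or fewer reads. PSI was higher under Zfp871 than under Srrm4 knockdown in Ppp1r12c, a myosin phosphatase subunit (by 17.6 points, read test adjusted p = 0.0212), and in Trrap, a scaffold of histone acetyltransferase complexes (by 16.2, adjusted p = 0.0388). It was also higher in Cpsf6, a pre-mRNA cleavage factor (by 10.3, adjusted p = 0.0455). BC029214 had 6.67 and 0 in the Srrm4 and 29.7 and 41.7 in the Zfp871 knockdown from 18 to 37 reads, a difference of 32.4 points (adjusted p = 0.0218). Ccne2, an E-type cyclin, had 86.9 and 86.5 against 76.2 and 73.8, a difference of -11.7 (adjusted p = 0.0057). These 5 calls were each lost when a single library was left out, with adjusted p-values up to 0.582.

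Ipo7, a nuclear import receptor and 1 of the most-read members (chr7:117196225-117196228, plus strand), shows a small difference at high depth. Its PSI was 92.7 and 93.0 in control, 92.1 and 91.6 in the Srrm4 and 86.6 and 86.9 in the Zfp871 knockdown, from 2237 to 3343 reads. The Zfp871 libraries were lowest, and the read test gave an adjusted p of 0.000104 for a difference of -6.09 points, which the 10-point limit leaves uncalled. Pcbp3 had 66.3 and 66.8 in control and 62.5 and 60.2 in the Zfp871 knockdown, a difference of -5.16 (adjusted p = 0.683).

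Further members had large differences that no test called. For Srrm4 these were Phf21a (25.8 and 44.4 in control, 52.5 and 73.1 in the knockdown), Mttp (51.5 and 44.1 against 26.7 and 27.1) and Apbb2 (28.1 and 21.7 against 41.5 and 41.7). Chd5, Efcab7, Rnf213, 4932438A13Rik and Kalrn followed, with differences of -15.3, 15.3, -14.6, -13.5 and -13.5 points. For Zfp871 they were BC029214 (28.4 points), Bahcc1 (20.4), Tmc8 (-18.5), Hus1 (-17.7), Tatdn3 (-17.5) and Ywhaz (17.5). The libraries of the groups did not overlap in any of these, which was the condition for naming them, and their reads per library were between 13 and 292. Of these host genes, Ywhaz was itself called lower under Zfp871 knockdown (log2 fold change -0.96, edgeR adjusted p = 0.0227) and Mttp higher under Srrm4 knockdown (0.88, edgeR adjusted p = 0.0422). Between the knockdowns Wdr85 (-21.6), Txndc16 (-20.9), 3110056O03Rik (19.3) and Ccnj (18.9) were likewise apart and not called.

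By extra triplet, the median difference for Zfp871 knockdown was -1.74 points for TAG (19 higher and 40 lower of 59), -0.61 for AAG (72 and 94 of 166), -0.10 for CAG (214 and 226 of 441) and 0.42 for GAG (22 and 16 of 38). For Srrm4 knockdown it was -0.46 for CAG (190 and 250 of 441), 0.49 for AAG (99 and 64 of 166), -0.16 for TAG (27 and 32 of 59) and 0.53 for GAG (24 and 14 of 38). Libraries did not overlap for Srrm4 in 31.5% of CAG members (50 higher, 89 lower) and 36.1% of AAG members (35 and 25). The shares were 44.1% for TAG (9 and 17) and 39.5% for GAG (9 and 6), against 30.3% of all acceptors. Libraries did not overlap for Zfp871 in 49.7% of CAG, 53.6% of AAG, 47.5% of TAG and 26.3% of GAG members, against 34% of all acceptors. These medians and counts are descriptions and carry no test.

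In the first experiment each group had 1 library, so no test was possible and the limit was a size rule: at least 20 reads in all 3 libraries, a difference of at least 10 points and 95% exact (Clopper-Pearson) intervals without overlap. All 855 members had enough reads. Under Mbnl1/2 knockdown 4 members passed (2 higher, 2 lower; background 0.179%), and under Nacc1 knockdown 5 (3 higher, 2 lower; background 0.166%). Wider pairs by the same rule gave 20 and 19 of 2239. The median difference was 0.20 and 0.29 points, and the median absolute difference 2.84 and 2.83. A difference of at least 10 points was seen in 68 (7.95%) and 70 (8.19%) members. The same held for 7.82% and 7.37% of wider pairs by the same rule, and for 1.81% and 1.76% of all acceptors.

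Under Mbnl1/2 knockdown, PSI in Wdsub1, a WD repeat and U-box protein (chr2:59699794-59699797, minus strand), was 91.7 against 63.6 in control, from 48 and 55 reads. Cyth2, an exchange factor for ARF proteins (chr7:53063819-53063822, minus strand), had 92.7 against 82.5, from 451 and 513 reads. Lig3, DNA ligase III (chr11:82601130-82601133, plus strand), had 56.1 against 74.7, and Acsl4, a long-chain acyl-CoA synthetase (chrX:138786158-138786161, minus strand), 30.1 against 45.7. In all 4 the Nacc1 library was close to control, at 65.9 for Wdsub1, 84.8 for Cyth2, 74.9 for Lig3 and 43.4 for Acsl4. The 6 libraries of the second experiment lay between 76.9 and 82.6 for Cyth2 and between 45.7 and 54.4 for Acsl4, so the Mbnl1/2 library was beyond them in both.

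Under Nacc1 knockdown, PSI in Cyp4f16, a cytochrome P450 (chr17:32673940-32673943, plus strand), was 0 from 32 reads (exact interval up to 10.9), against 60.3 from 24 reads in control (36.6 to 77.9). The same pair was at 0 in Zfp871 library a (10 reads) and at 64.8 in Zfp871 library b (20 reads), so a value of 0 occurred within a group at this depth. Eif4a2, a translation initiation helicase (chr16:23108658-23108661, plus strand), had 55.8 against 36.1, from 91 and 115 reads. Zc3h11a, a zinc finger protein of mRNA export (chr1:135534033-135534036, minus strand), had 95.2 against 79.2, but the 2 control libraries of the second experiment differed by more, at 89.3 and 69.2. Sema4c, a semaphorin (chr1:36607670-36607673, minus strand), had 100 against 88.9, with 97.9 in the Mbnl1/2 library. In the second experiment it stood at 98.4 and 95.3 in control, 91.43 and 91.76 in the Srrm4 and 89.55 and 92.55 in the Zfp871 knockdown. The control of the first experiment was the lowest of these values, close to Zfp871 library a. Ppp4c had 56.8 against 75.7, from 327 and 298 reads, with 65.4 in the Mbnl1/2 library; this was opposite in direction to its difference under Srrm4 knockdown.

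**Figure D5:**
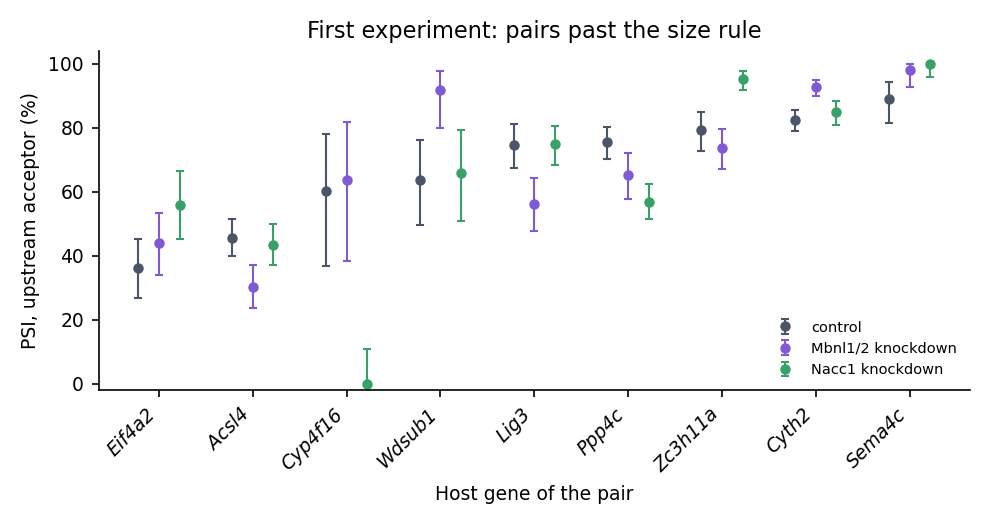
PSI (percent, vertical axis) of the 9 members past the size rule in the first experiment, ordered by control PSI; points are single libraries and bars their 95% exact intervals, which cover counting error only. Cyp4f16 stands at 0 in the Nacc1 library and at 60.3 in control.

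Other large differences had overlapping intervals. For Mbnl1/2 knockdown they were in Per3 (83.6 against 58.3), Zfp82 (32.3 against 9.52), Pnpla6 (45.9 against 67.0), Rfx7 (10.7 against 31.3), Enox1 (61.9 against 82.4), Tmc8 (66.7 against 46.3), Sp2 (8 against 27.6) and Heatr5a (34.5 against 16.7). For Nacc1 knockdown they were in Zkscan3 (51.7 against 76.7), Zfp82 (30 against 9.52), Per3 (76.1 against 58.3), Rabgef1 (52.6 against 35.1), Tmem229b (45.5 against 62.5), Tmc8 (63.0 against 46.3) and Ncor1 (23.9 against 40.1). In Per3, Zfp82 and Tmc8 both knockdown libraries lay on the same side of the control library they share.

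The authors' deposited table marks 30 of the 855 members as differential under Mbnl1/2 knockdown (background 0.788%) and 28 under Nacc1 knockdown (background 0.752%). For the second experiment the authors' deposited table marks 5 of 875 under Srrm4 (background 0.149%) and 27 under Zfp871 knockdown (background 0.418%). Those backgrounds cover all acceptors with a mark, without the PSI range on which the members were selected. The counts are set beside them without a test. The rule behind the marks is not stated. All 4 members past the size rule under Mbnl1/2 knockdown, and all 5 under Nacc1 knockdown, carry one in the authors' deposited table.

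Expression of the host genes was tested on gene counts. Of 873 host genes, 51 were called under Srrm4 knockdown (6 higher, 45 lower; 5.84%, background 4.7%) and 25 under Zfp871 knockdown (3 higher, 22 lower; 2.86%, background 2.89%), so their share was close to that of all genes. These counts ignore the pairing of gene counts by column letter. With that letter as a block, 337 (38.6%, all genes 36.9%) and 289 (33.1%, all genes 31.1%) were called. Among hosts of the pairs called by the read test, Elavl3 was lower under Srrm4 knockdown (log2 fold change -0.49, edgeR adjusted p = 0.0327), where its PSI differed by -2.63 points. Fsd1l had a log2 fold change of -0.04 under Srrm4 (adjusted p = 0.944) and -0.86 under Zfp871 knockdown (edgeR adjusted p = 0.139, and 0.00324 with the block). Ap2a2 stood at 0.43 under Zfp871 knockdown (edgeR adjusted p = 0.0569, and 0.000207 with the block), while Naa50, Map4k4, Neurl4 and Nrf1 were at 0.13, -0.02, -0.04 and 0.03.

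Factors that recognise the acceptor or act in the second step were followed as a list of 27 genes, of which 24 were tested. In edgeR's test without a block 0 were called in either contrast, with 2 and 5 at an unadjusted p under 0.05. With the column letter as a block 3 of the 24 were higher and 1 lower under Srrm4 knockdown, where 36.9% of all genes were called. Among them were the second-step helicase Dhx38 (log2 fold change 0.40, edgeR adjusted p = 0.000366) and Slu7 (0.24, adjusted p = 0.0275). Under Zfp871 knockdown 4 of the 24 were higher and 2 lower with the block, where 31.1% of all genes were called. Among them were Cdc40 (0.31, edgeR adjusted p = 0.00858), Ptbp1 (0.33, adjusted p = 0.00373) and Ptbp2 (-0.73, adjusted p = 3.39e-06), the last 2 being pyrimidine tract binding proteins. With only 24 listed genes these counts are descriptions, and their distance from the share of all genes was not tested. U2af1, which contacts the AG, stood at 169.5 and 180.7 CPM in control, 154.1 and 169.6 in the Srrm4 and 177.7 and 186.4 in the Zfp871 knockdown, and U2af2 had log2 fold changes of 0.07 and 0.13. Prpf18 had 0.16 and -0.09. The part of these factors in the PSI values was not tested.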

How the data were processed

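PolyA RNA of 9 libraries was analysed. The submitters' processing notes name build mm9, CASAVA 1.8 and edgeR, and the design text names vast-tools (version and aligner: not given in the sources used here). Filtered tables deposited by the authors hold 1 PSI per condition, in percent, and chose the members. First-experiment PSI is the authors' percent per library. For the second it was recomputed from the inclusion and exclusion reads in the deposited vast-tools text cells, whose totals are whole. Gene tables hold raw counts, per the file headers. The 17 per-library columns not used were normalised expression, a trimmed control, and PSI columns that repeat those reads.

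The members, lists and named-gene rule were chosen with earlier results of these data known. Rows needed 10 reads in each of 6 libraries and a PSI of 2 to 98 in at least 1. They were tested with limma 3.58.1 (trend) on log2((PSI + 1)/(101 - PSI)), all 6 libraries in 1 fit; the alternative was an edgeR 4.0.16 quasi-likelihood test on inclusion and exclusion reads, rounded. Gene counts went through edgeR (filterByExpr, TMM). Benjamini-Hochberg adjustment ran over all acceptors or genes. Both were tested on simulated data, where at the real read numbers limma recovered fewer planted changes than the read test.

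Named were called members, the 10 largest differences per contrast (without overlap in the second experiment), the 10 most-read members, and 3 either side of each limit. Letters paired the libraries in gene expression: a minus b differences correlated at 0.637 to 0.749 over 12378 genes between groups. For members' PSI the correlations were 0.083, -0.003 and -0.107, so no block was used in the PSI tests. The main gene tests also had no block and so ignored the pairing seen in gene counts. For host genes and listed factors the calls with the block are given beside them. Sequences came from GENCODE vM21 transcripts, matched by gene symbol and intron length without converting coordinates: 905 of 969 matched. Some members and list genes are not reported here.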

Additional observations from a re-analysis of the deposited data

How the results depend on the processing

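In limma no alternative offset, read minimum, sample choice, size limit, added donors, replicate block or left-out library gave a called member in any contrast. The edgeR read test instead called 3, 10 and 14 members (Srrm4 against control, Zfp871 against control, Zfp871 against Srrm4 knockdown), and 3, 11 and 15 with a replicate block by column letter. Leaving out 1 library, chosen after seeing the data, gave 2 to 3, 2 to 10 and 3 to 18 calls. The lowest Zfp871 count was without its library b, where Rg9mtd3 reversed to 1.83 points (-47.58 without library a); at 50 reads per library Srrm4 had 1 call. In the first experiment a 20-point limit left 1 member each. Host gene calls were 51 and 25, but 0 and 14 with only the 4 libraries of the comparison, 337 and 289 with the replicate block, 149 and 103 with DESeq2, and 0 to 22 and 0 to 15 with a library left out. The causes were not tested. Depth limits the members: at 10 to 50 reads the control libraries differed by a median of 4.82 points.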

Other observations

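Some deeply read pairs were picked after their values were seen, from the widest ranges among the 172 shared members with at least 200 reads in every library. Rbm8a, a core subunit of the exon junction complex, had a PSI of 51.0 to 51.9 in the 3 libraries of the first experiment and of 60.8 to 66.0 in the 6 of the second, with no overlap between the experiments. Rg9mtd3, with fewer reads, had 30.5 to 57.8 in the first experiment and 97.9 to 100 in 5 libraries of the second, with 50.6 in the sixth.

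Other deep pairs with wide ranges had an extreme in a Zfp871 knockdown library. Sdcbp, a PDZ scaffold protein, had 69.5 and 68.2 in control and 60.3 and 56.3 in the Zfp871 knockdown, and its gene was called higher there (log2 fold change 0.70, edgeR adjusted p = 0.0227). The gene was also called higher under Srrm4 knockdown (0.47, edgeR adjusted p = 0.0335), where PSI was 68.2 and 69.0. Rad51ap1, a DNA repair factor, had 53.2 and 53.9 against 63.2 and 67.7, and Terf2, a telomere protein, 65.3 and 63.0 against 58.7 and 50.3. None of the 3 was called by the read test (adjusted p = 0.168, 0.189 and 0.329).

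Cnbp and Cyth2 were the 2 members among 129 matched to a triplet not ending in AG before the upstream acceptor. That triplet was TTG. PSI was steady in Cnbp, at 28.9% to 33.0% of 1544 to 3680 reads per library. The match rests on gene symbol and intron length in another build than the files', and a shifted annotation was not tested.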
